A study of Bos taurus with 6 samples.

Results

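Fatty acid oxidation breaks fatty acids down to acetyl-CoA. The genes described here encode its carnitine, mitochondrial and peroxisomal steps, together with the enzymes that set malonyl-CoA and the pyruvate dehydrogenase kinase that favours fat as a fuel. They were chosen by name from a list of 37 genes, of which 36 were in the mRNA table of 25444 genes, all with reads in both libraries. CPT1B was not analysed here. The tissue was intramuscular fat (IMF) dissected from the sternomandibularis muscle of Chinese Qinchuan cattle. Steers, males castrated at 6 months (labelled CM), were compared with bulls, males left intact (labelled IM). Both groups were weaned at 3 months, shared a sire and a diet, and were slaughtered at 24 months. RNA of each group was pooled in equal amounts into 1 library per group, from 6 animals according to the series design and from 3 according to the sample labels. With no replicate library, the tests below compared the reads of 2 pools and not the conditions, and the spread between animals is unknown.

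In this pathway a long-chain fatty acid is first joined to carnitine at the outer mitochondrial membrane, a step that malonyl-CoA inhibits, and is returned to CoA inside. Each turn of the mitochondrial cycle then dehydrogenates, hydrates, dehydrogenates and cleaves the chain, and electron transfer flavoprotein passes electrons on to the respiratory chain. Peroxisomes shorten very long and branched chains by a parallel set of enzymes. In fat cells, which mainly store and release fatty acids, oxidation is a minor fate compared with muscle.

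The libraries held 12677375 counts in steers and 9868415 in bulls. Size factors from medians of ratios (1.04 and 0.959) set the typical gene to no difference, so that over the 17752 genes with a count the median log2 fold change was 0.01. Positive log2 fold changes (log2FC) mean higher in steers. Genes were called upregulated or downregulated where the adjusted p was under 0.05 (exact binomial test, two-sided, Benjamini-Hochberg over those genes) with an absolute log2FC over 1. By this rule 4.66% of all genes were upregulated and 8.5% were downregulated. Ranges after a log2FC are 95% Clopper-Pearson intervals, which cover counting error only. Where a pair of counts stands without a label, steers come first. Counts were not divided by transcript length and were therefore not compared between genes.

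Of the 36 oxidation genes, ECHS1 and DECR1 were upregulated in steers, and CPT1A, PDK4 and ACACB were downregulated. These 5 genes make up 13.9% of the list, close to the 13.2% called among all genes, so the list as a whole was not called more often than other genes. The median log2FC of the 36 genes was 0.03, and 26 of them lay within 0.5 of 0. At the adjusted p alone, without the fold threshold, 14 genes (38.9%) were higher in steers and 5 (13.9%) were lower, compared with 20.4% and 18.9% of all genes. Scaling by total counts in place of the size factors moved all genes alike, to a median of -0.23 over all genes and -0.21 over these 36. The split then turned, with 8 oxidation genes higher in steers and 12 lower at the adjusted p. Shares of all genes at the adjusted p alone were not computed at that scaling, so this turn is not a result about these genes. With the fold threshold, total counts took the calls of all genes from 827 upregulated and 1509 downregulated to 586 and 2089. Low counts seldom pass such a test. The lowest sum of an oxidation gene was 34 counts over both libraries. Among the 12665 genes with at least that many, the shares at the size factors were 26.3% and 23.4%. The counts of the list summed to 30199 in steers and 29158 in bulls, or 0.238% (exact interval 0.236 to 0.241) and 0.295% (0.292 to 0.299) of the library. At the size factors the log2FC of these sums was -0.07. The lower share in steers came from CPT1A, PDK4 and ACACB. Without them, a choice made after their values were seen, the shares were 0.211% in steers and 0.206% in bulls, with a log2FC of 0.27. The mitochondrial steps alone took 0.160% and 0.150%, with a log2FC of 0.33.

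**Figure D1:**
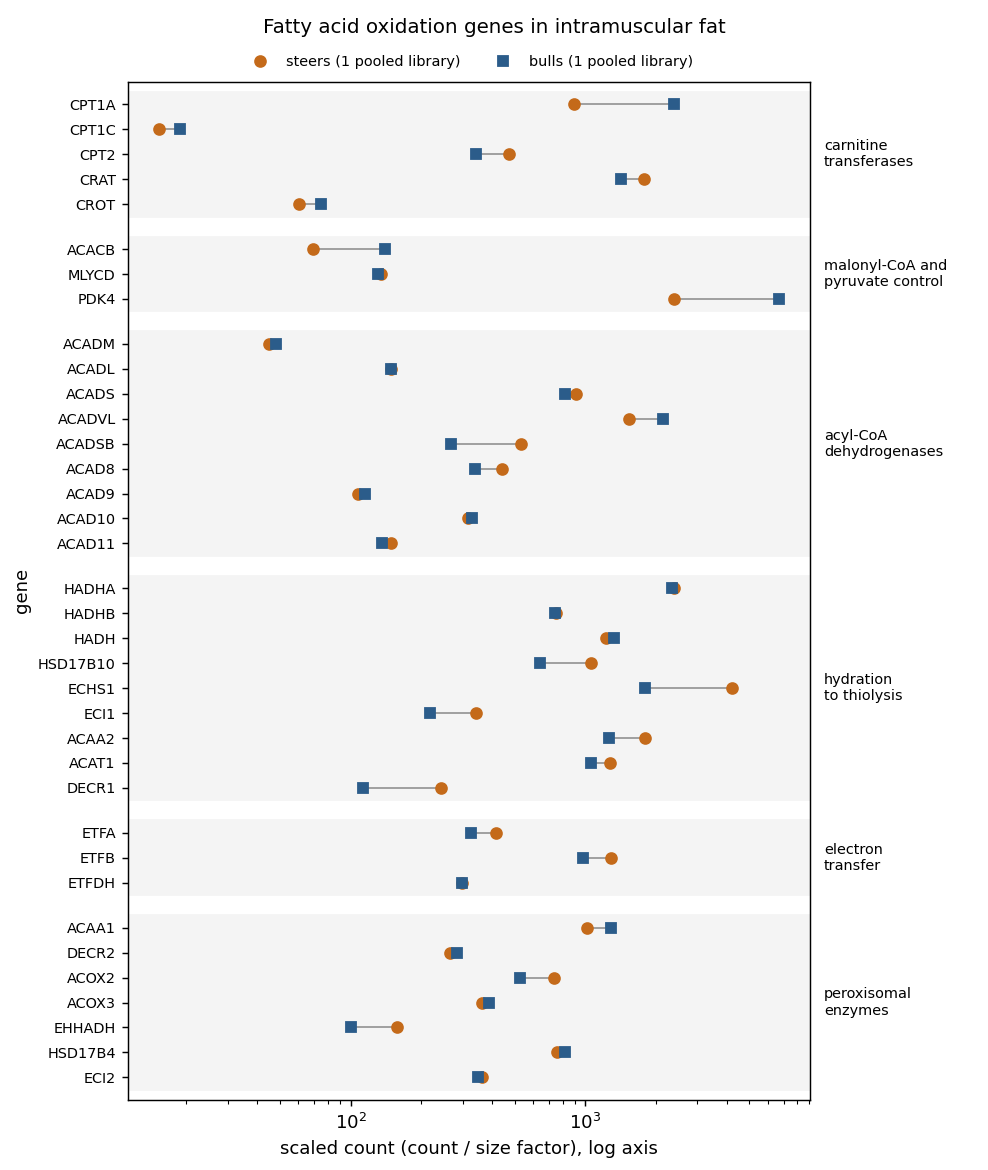
Scaled counts (count divided by the size factor, log axis) of the 36 oxidation genes, with a circle for the pooled library of steers and a square for that of bulls, grouped by step. PDK4, CPT1A and ACACB lie further right in bulls, and ECHS1, DECR1 and ACADSB lie further right in steers, while most pairs of symbols nearly coincide.

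The carnitine transferases moved in different directions. CPT1A encodes the carnitine palmitoyltransferase of the outer mitochondrial membrane, the controlled entry step for long-chain fatty acids. It had 930 counts in steers versus 2279 in bulls, a log2FC of -1.42 (-1.53 to -1.30), or 2.67-fold lower in steers, and it was downregulated. CPT2, whose product returns the acyl group to CoA at the inner membrane, went the other way with 493 counts in steers versus 328 in bulls. Its log2FC of 0.47 (0.26 to 0.67) passed the adjusted p (2.9e-05, exact binomial test) but not the fold threshold. CRAT, which attaches acetyl and other short groups to carnitine, had 1854 and 1363 counts and was at 0.32 (0.22 to 0.42). With total counts CPT2 (0.23) and CRAT (0.08) did not pass the adjusted p.

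The other carnitine transferases had few reads. CROT, the peroxisomal enzyme for medium-length chains, had 63 counts in steers versus 72 in bulls, and its interval of -0.83 to 0.19 held 0. CPT1C, known from the brain and grouped here by its name as a carnitine palmitoyltransferase 1, had 16 and 18 counts, the fewest of the list. Its interval was -1.36 to 0.76. The count ratio of CPT1A to CPT1C was lower in steers (log2 difference -1.12, -2.18 to -0.05), with an interval that ended close to 0. Over these 5 genes the median was -0.29, with CPT1A, CROT and CPT1C below 0.

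Malonyl-CoA is made at the mitochondrial surface by ACACB and removed by MLYCD. ACACB had 72 counts in steers versus 135 in bulls and was downregulated at -1.03 (-1.46 to -0.61, adjusted p = 3.7e-06, exact binomial test), 2.04-fold lower, just past the fold threshold. MLYCD had 141 and 126 counts and a log2FC of 0.04 (-0.32 to 0.40). The maker of the inhibitor was lower in the pool of steers, as was its target CPT1A, while counts of the remover differed by less than the counting error.

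PDK4 phosphorylates and switches off pyruvate dehydrogenase, which spares glucose when fat is burned. It had 2495 counts in steers versus 6424 in bulls, and at -1.49 (-1.55 to -1.42) it was the oxidation gene with the largest fall, 2.80-fold lower. The related kinases PDK1, PDK2 and PDK3 lay between -0.03 and 0.17 on the log2 scale, and none of these 3 passed the adjusted p. PDP1, a phosphatase that reverses the action of these kinases, had 243 and 147 counts and was at 0.60 (0.30 to 0.91). PDHA1, the catalytic subunit they act on, was at 0.40 (0.24 to 0.56). Neither PDP1 nor PDHA1 passed the fold threshold, and both were named after their values were seen. PDHB (0.07) and DLAT (0.25), other genes of pyruvate dehydrogenase, did not pass the adjusted p. Of 13 genes of AMP kinase and this switch, 2 were higher in steers and 1 was lower at the adjusted p, or 1 and 3 with total counts.

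**Figure D2:**
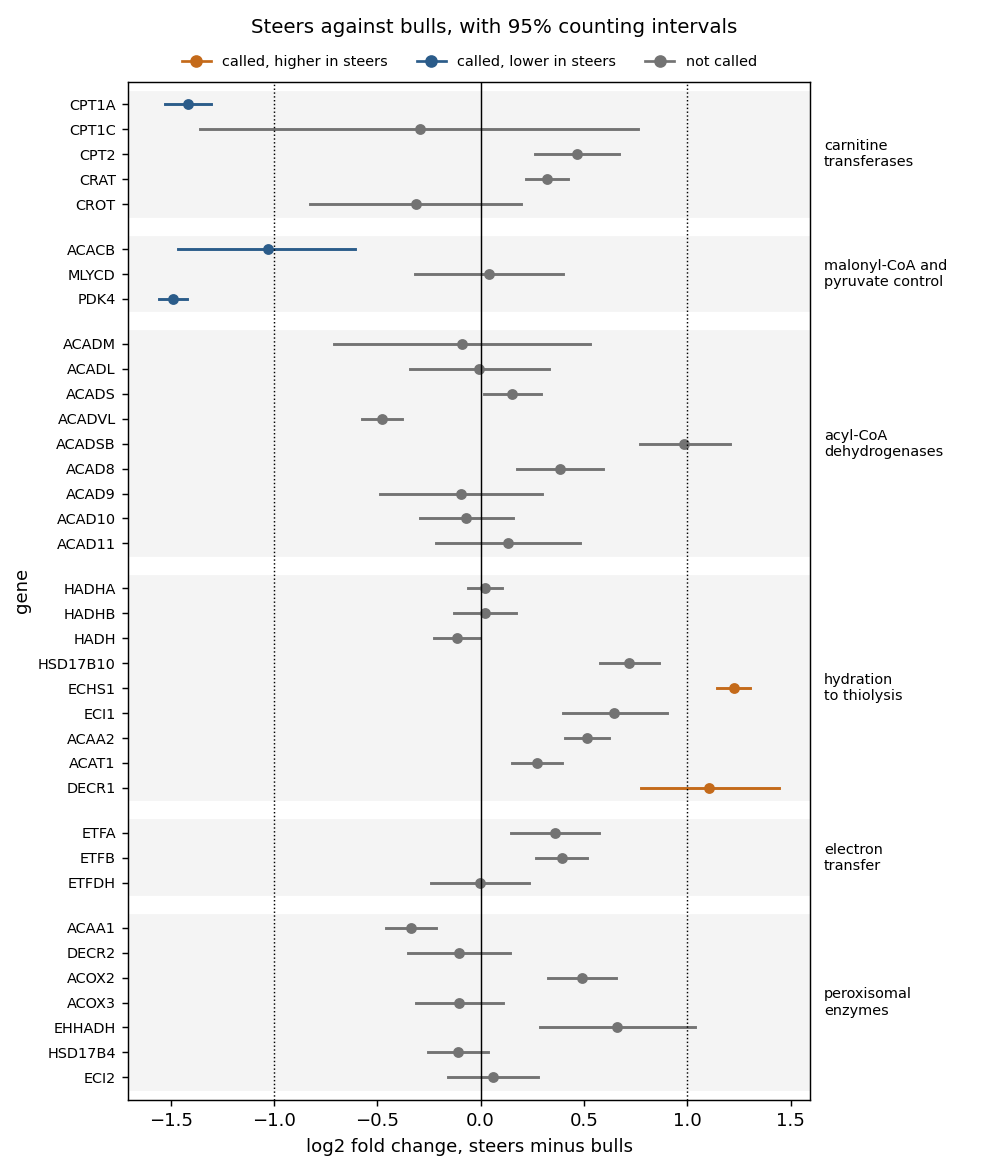
Log2FC values of the 36 oxidation genes (steers minus bulls, horizontal axis) with 95% counting intervals as lines, grouped by step, and dotted lines at the fold threshold of 1. The 3 downregulated genes lie in the carnitine and control groups and the 2 upregulated genes among the enzymes from hydration to thiolysis.

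The mitochondrial acyl-CoA dehydrogenases, which open each turn of the cycle, had a median of -0.01 and none of the 9 was called. ACADVL acts on the longest chains at the inner membrane. It had 1604 counts in steers versus 2051 in bulls, and its log2FC of -0.48 (-0.57 to -0.38) was the lowest of the 9. The enzymes for shorter chains stayed closer to 0. ACADL had 155 and 143 counts (-0.01, interval -0.34 to 0.33), and ACADM, the medium-chain enzyme, had 47 and 46 (-0.09, -0.71 to 0.53). ACADS, the short-chain enzyme, had 951 and 786 counts and was at 0.15 (0.01 to 0.29), with an adjusted p of 0.0698 in the exact binomial test.

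ACADSB and ACAD8 belong to the same enzyme family but are best known for the breakdown of isoleucine and valine. ACADSB had 554 counts in steers versus 257 in bulls, and at 0.99 (0.77 to 1.21) it lay just inside the fold threshold and was not called. ACAD8 had 462 and 325 counts and was at 0.39 (0.18 to 0.59). For ACAD9, which also helps to assemble respiratory complex I, and for ACAD10 and ACAD11, log2FC values ran from -0.10 to 0.13 and all 3 intervals held 0. ACAD9 had 112 and 110 counts, ACAD10 had 329 and 317, and ACAD11 had 155 and 130.

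The mitochondrial enzymes from hydration to thiolysis leaned towards steers at the size factors. Of these 9 genes, 8 had a log2FC above 0, and 6 were higher in steers at the adjusted p compared with 26.3% of the genes with at least 34 counts. With total counts 6 were above 0, and 5 were higher and 3 lower at the adjusted p, the lower ones being HADHA, HADHB and HADH. The median was 0.51, or 0.27 with total counts. Summed over the 9 genes, counts were 13853 in steers and 9111 in bulls, or 0.109% and 0.0923% of the library. ECHS1, the short-chain enoyl-CoA hydratase that also serves valine breakdown, had 4384 counts in steers versus 1724 in bulls. It was upregulated at 1.22 (1.14 to 1.31), or 2.34-fold higher. DECR1, the dienoyl-CoA reductase needed for unsaturated fatty acids, had 253 and 108 counts and was upregulated at 1.11 (0.78 to 1.44, adjusted p = 4.2e-11, exact binomial test).

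The rise was not shared by every enzyme of these reactions. HADHA and HADHB encode the subunits of the trifunctional protein, which hydrates, dehydrogenates and cleaves long chains. HADHA had 2481 and 2248 counts (0.02, -0.06 to 0.10) and HADHB had 785 and 711 (0.02, -0.13 to 0.17). HADH, the dehydrogenase for shorter chains, had 1283 and 1276 counts and was at -0.11 (-0.23 to -0.0014). The interval of HADHA lay wholly below that of ECHS1, by counting error alone.

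Between these genes lay others that passed the adjusted p below the fold threshold. HSD17B10, a hydroxyacyl-CoA dehydrogenase that is also part of mitochondrial RNase P, had 1099 counts in steers versus 613 in bulls and was at 0.72 (0.58 to 0.86). ECI1, the enoyl-CoA isomerase for unsaturated chains, had 358 and 210 counts and was at 0.65 (0.40 to 0.90). ACAA2, the thiolase that releases acetyl-CoA, had 1879 and 1209 counts and was at 0.51 (0.41 to 0.62). ACAT1, which handles acetoacetyl-CoA in ketone body and isoleucine breakdown, was at 0.27 (0.15 to 0.39), with 1331 and 1012 counts.

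Electrons from the acyl-CoA dehydrogenases pass to electron transfer flavoprotein, a dimer of ETFA and ETFB, and from there to ETFDH in the inner membrane. ETFA had 436 counts in steers versus 312 in bulls, a log2FC of 0.36 (0.15 to 0.57). ETFB had 1342 and 940 counts and nearly the same value, 0.39 (0.27 to 0.51). ETFDH had 312 and 287 counts and was at -0.0017 (-0.24 to 0.23). None of the 3 was called.

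None of the 7 peroxisomal enzymes was called either, and their median was -0.10. EHHADH, the L-bifunctional enzyme, had 165 counts in steers versus 96 in bulls and the highest value, 0.66 (0.29 to 1.04). ACOX2, an oxidase for branched chains and bile acid precursors, was at 0.49 (0.33 to 0.66), with 771 and 504 counts. ACAA1, the peroxisomal thiolase, had 1062 and 1233 counts and was at -0.34 (-0.46 to -0.22). These 3 passed the adjusted p at the size factors, and the remaining 4 did not. With total counts ACOX2 was higher at the adjusted p, and ACAA1, ACOX3, HSD17B4 and DECR2 were lower. EHHADH and ECI2 did not pass it at that scaling.

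ACOX3, a further branched-chain oxidase, had 378 and 373 counts and was at -0.10 (-0.31 to 0.11). HSD17B4, the D-bifunctional enzyme, had 792 and 785 counts and was at -0.11 (-0.25 to 0.03). DECR2, the peroxisomal dienoyl-CoA reductase, had 276 and 273 counts, and ECI2, an isomerase found in peroxisomes and mitochondria, had 379 and 334. Their intervals, -0.35 to 0.14 for DECR2 and -0.16 to 0.28 for ECI2, held 0.

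The ratio of 2 genes within a library does not depend on how the libraries were scaled. The count ratio of HADHA to HADHB was 3.16 in steers and 3.16 in bulls, a difference of -0.00056 on the log2 scale with an interval of -0.17 to 0.17. The ratio of ETFA to ETFB was 0.325 and 0.332 (difference -0.03, -0.28 to 0.22). For both complexes the proportions of the subunits differed by less than the counting error.

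Other pairs differed by more than the counting error. CPT1A to CPT2 was 1.89 in steers and 6.95 in bulls, 3.68-fold lower in steers (log2 difference -1.88, -2.12 to -1.65). ACACB to MLYCD was 0.511 and 1.07 (-1.07, -1.63 to -0.51). For 3 reactions a mitochondrial enzyme was set beside one found in peroxisomes, although ECI2 is found in both organelles. The ratio of DECR1 to DECR2 was 0.917 in steers and 0.396 in bulls, that of ACAA2 to ACAA1 was 1.77 and 0.981, and that of ECI1 to ECI2 was 0.945 and 0.629, with log2 differences of 1.21 (0.79 to 1.63), 0.85 (0.69 to 1.01) and 0.59 (0.25 to 0.92). Other enzymes of the 2 organelles had the opposite order of log2FC, as peroxisomal EHHADH (0.66) and ACOX2 (0.49) lay above mitochondrial HADHA (0.02) and ACADVL (-0.48).

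**Figure D3:**
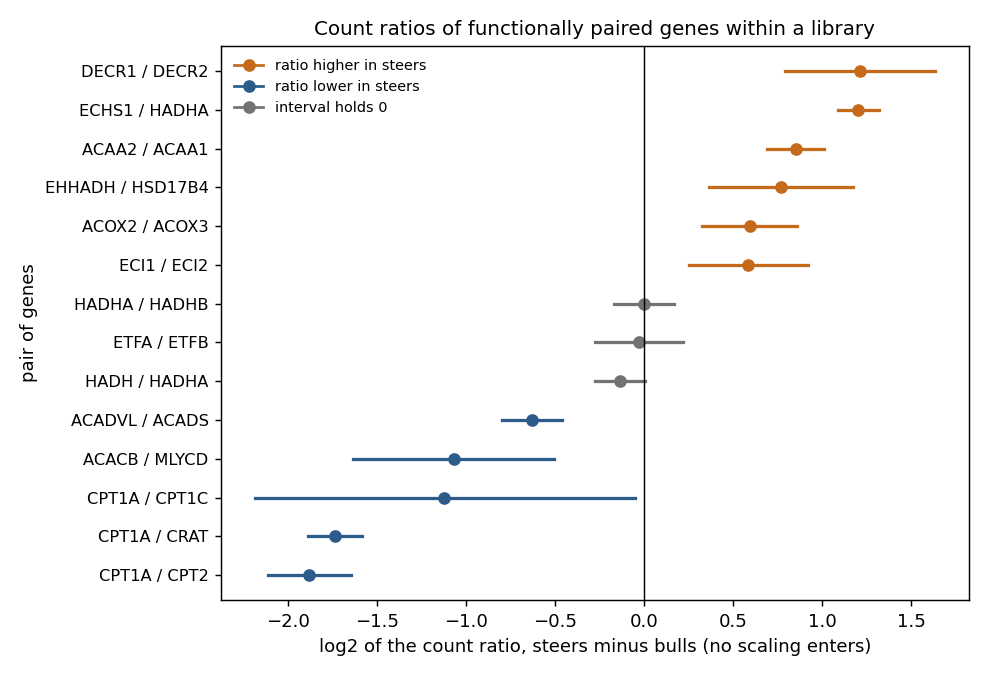
Log2 difference between steers and bulls in the count ratio of 14 pairs of genes (horizontal axis), with 95% counting intervals as lines. The subunit pairs HADHA/HADHB and ETFA/ETFB and the pair HADH/HADHA have intervals that hold 0, CPT1A/CPT2 is lowest at -1.88 and DECR1/DECR2 is highest at 1.21.

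Within the mitochondrial cycle, some pairs of enzymes for different chain lengths differed between the pools and another did not. The ratio of ECHS1 to HADHA, the hydratases for short and long chains, was 1.77 in steers and 0.767 in bulls (log2 difference 1.20, 1.09 to 1.32). That of ACADVL to ACADS, the dehydrogenases for very long and short chains, was 1.69 and 2.61 (-0.63, -0.80 to -0.46). The ratio of HADH to HADHA, 0.517 and 0.568, differed by no more than the counting error (-0.13, -0.27 to 0.01). In peroxisomes, ACOX2 to ACOX3 was 2.04 and 1.35, and EHHADH to HSD17B4 was 0.208 and 0.122, both intervals above 0.

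The scaling of the libraries changed calls among upregulated but not among downregulated oxidation genes. With total counts in place of size factors the values of all genes shifted by -0.24, and the upregulated share of all calls went from 35.4% to 21.9%. ECHS1 (0.99) and DECR1 (0.87) then fell short of the fold threshold, so that 0 oxidation genes were upregulated and 3 were downregulated, and HADHA and HADHB were both at -0.22. CPT1A, PDK4 and ACACB were downregulated with each of the 4 scalings. With upper-quartile factors ACADSB reached 1.00 and became the third upregulated gene.

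**Figure D4:**
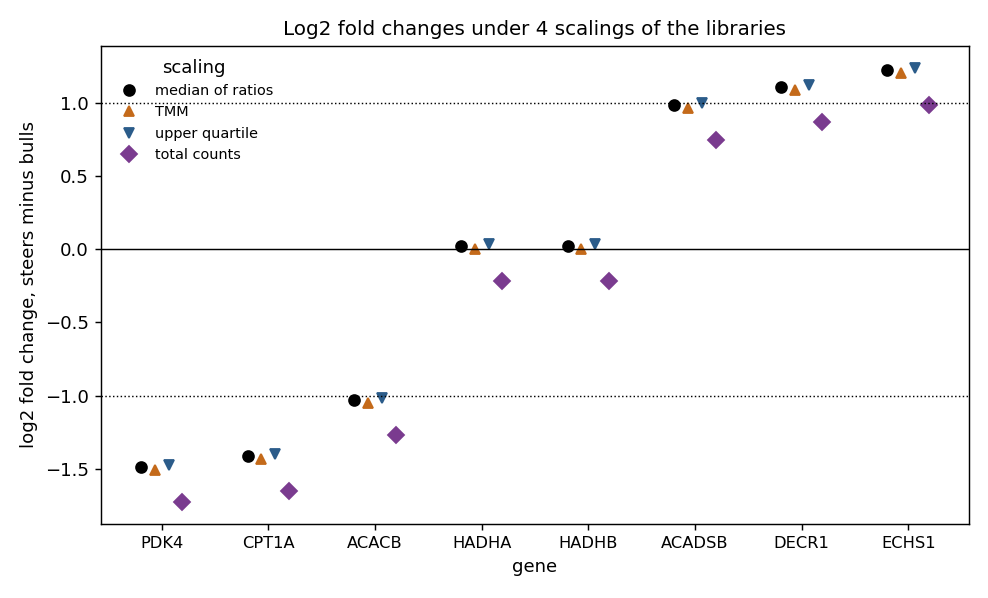
Log2FC values (steers minus bulls, vertical axis) of the oxidation genes called with any of 4 scalings, and of HADHA and HADHB, each symbol standing for a scaling. Median of ratios, TMM and upper quartile nearly coincide, and total counts lies 0.24 below median of ratios for every gene, which takes ECHS1 and DECR1 below 1 and leaves PDK4, CPT1A and ACACB below -1.

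Because each pool gave 1 library, the calls were also made with an assumed biological coefficient of variation between pools (edgeR exact test). At 0.1 all 5 genes were called, and of all genes 681 were upregulated and 1249 downregulated. At 0.2 PDK4 (adjusted p = 0.01) and CPT1A (adjusted p = 0.017) were called, and of all genes 368 were upregulated and 762 downregulated. ECHS1 was at an adjusted p of 0.052, DECR1 at 0.15 and ACACB at 0.25 in that test. At 0.4 no oxidation gene was called, as against 145 of all genes.

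Regulators of oxidation and genes of carnitine supply came from lists of the same pathway. Of 13 nuclear regulators with reads, LPIN1 was upregulated and 0 were downregulated. The median of the 13 was 0.11, or -0.13 with total counts. At the adjusted p alone 6 were higher in steers and 3 were lower, these being NRIP1 (-0.60), NCOR1 (-0.28) and RXRA (-0.22). Among all genes the shares were 20.4% and 18.9%. With total counts 3 regulators were higher and 4 lower, so the split depended on the scaling. LPIN1, a phosphatidate phosphatase that also acts as a nuclear coactivator, had 4683 counts in steers versus 1682 in bulls, a log2FC of 1.36 (1.27 to 1.44). PPARA, the nuclear receptor that drives oxidation genes in liver and muscle, had 308 and 178 counts and was at 0.67 (0.40 to 0.94), and PPARGC1A, its coactivator, had 35 and 45 (-0.48, -1.17 to 0.18). Carnitine supply gave no call among 5 genes with reads, and BBOX1 had 0 counts in both libraries. ALDH9A1, with the most counts of these, was at 0.14 (0.02 to 0.26). SLC25A20, the carrier that takes acylcarnitine across the inner membrane between CPT1A and CPT2, had 314 and 344 counts and was at -0.25 (-0.48 to -0.03, adjusted p = 0.0638, exact binomial test). Of 13 genes of AMP kinase and the pyruvate dehydrogenase switch, none was called, and PRKAB1, with the most counts, was at -0.05 (-0.21 to 0.10).

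The list of ketone body and propionyl-CoA routes had a median of 0.36, or 0.12 with total counts. Of its 7 genes with reads, BDH1 and OXCT1, enzymes of ketone body use, were upregulated. BDH1 had 359 counts in steers versus 53 in bulls (2.64, 2.22 to 3.08), and OXCT1 had 620 and 270 (1.08, 0.87 to 1.29). With total counts BDH1 was at 2.40 and OXCT1 fell to 0.84, short of the threshold. PCCB, a subunit of propionyl-CoA carboxylase, was at 0.73 (0.58 to 0.89).

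None of 17 peroxisomal partner genes and none of 15 genes of mitochondrial content was called. CAT, the peroxisomal catalase, was at -0.44 (-0.50 to -0.37). PHYH, which starts the breakdown of phytanic acid from plants, came nearest to the threshold with 789 counts in steers versus 1380 in bulls, at -0.93 (-1.06 to -0.80), and was singled out after its value was seen. Of the mitochondrial content genes, 14 of 15 lay above 0 with a median of 0.29, which was 0.05 with total counts. PHB2, a prohibitin with the most counts of these, was at 0.29 (0.18 to 0.41). CS, citrate synthase, was at 0.38 (0.22 to 0.54), close to ETFA and ETFB.

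**Figure D5:**
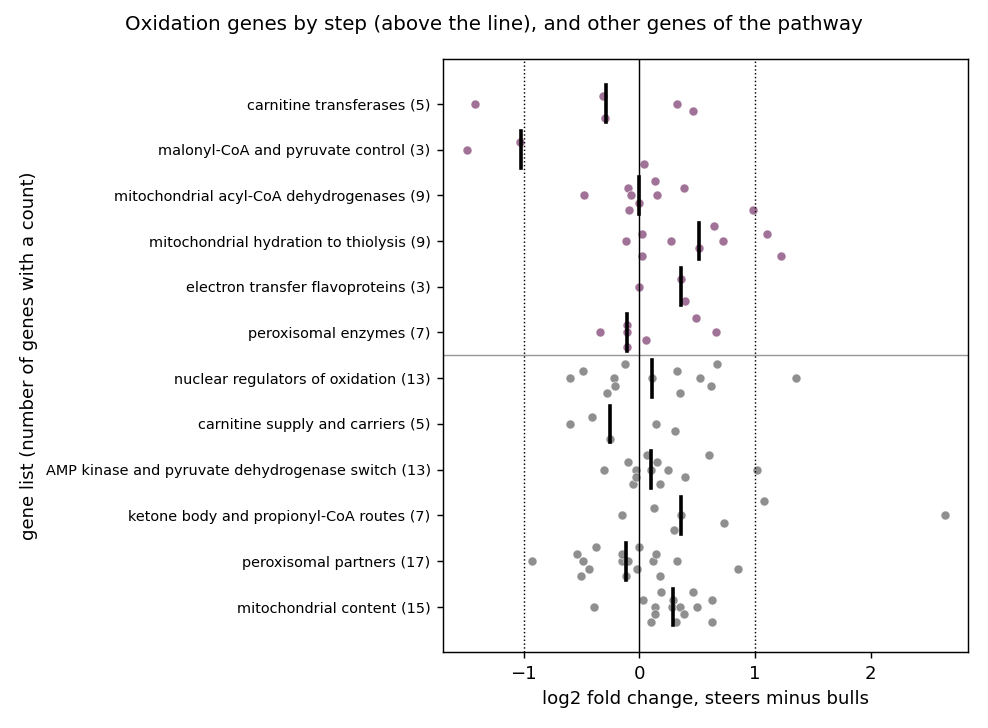
Log2FC values (steers minus bulls, horizontal axis) of single genes as points and list medians as black bars, with the oxidation genes by step above the grey line and other genes of the pathway below it, and dotted lines at 1 and -1. The median is -1.02 for malonyl-CoA and pyruvate control, 0.51 for hydration to thiolysis and 0.29 for mitochondrial content.

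Other cell types in the dissected tissue differed between the pools, and in bulk RNA fewer cells of a type and less RNA per cell cannot be told apart. Adipocyte markers had reads in both pools for all 12 genes in the table and took 0.394% of the library of steers and 0.520% of that of bulls, with a median of -0.05. At the adjusted p 4 of the 12 were higher in steers and 5 were lower, or 1 and 8 with total counts. TUSC5, with the most counts of them, was at 0.26, and CIDEA was upregulated (2.75). CIDEC (0.28) and PPARG (0.32) were also higher at the adjusted p without passing the fold threshold. FABP4 was downregulated (-1.06), and ADIPOQ (-0.68), PLIN4 (-0.48), CD36 (-0.39) and PLIN1 (-0.38), named after their values were seen, were lower at the adjusted p without passing the fold threshold.

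Skeletal muscle uses PDK4 and most oxidation enzymes heavily. Its 18 marker genes in the table took 0.333% of the library of steers and 0.642% of that of bulls, with a median of -0.62, and none was at 0. The 4 downregulated genes were the slow-fibre genes MYL2 (-2.27), MYH7 (-2.23) and TNNT1 (-2.01) and the intermediate filament gene DES (-1.26), and ACTA1, with the most counts, was at -0.65. Genes of fast fibres went in both directions, and they are named here after their values were seen. MYH1 was upregulated (1.15), TNNC2 (1.00, just short of the threshold) and TNNI2 (0.48) were higher at the adjusted p. MYLPF (0.15), TNNT3 (0.11) and MYH2 (0.01) did not pass it. MYL1 (-0.73), CASQ1 (-0.59) and ATP2A1 (-0.29) were lower at the adjusted p without passing the fold threshold.

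Myeloid markers took 0.264% in steers and 0.868% in bulls, and 10 of 12 were downregulated. CD74 had the most counts (-1.84), and LYZ (-4.38), CD14 (-2.34), AIF1 (-2.32) and C1QC (-2.11) had the largest falls. T lymphocyte markers had 220 counts in steers against 1351 in bulls, with 13 of 14 downregulated. Among them CD3E, with the most counts, was at -2.98, CD8A, ZAP70 and CD2 were at -4.35, -4.06 and -4.01, and CD3G was at 0 in steers and had 34 counts in bulls. Matrix genes took 13.9% and 8.23% of these libraries, with 5 of 14 upregulated, among them COL3A1 with the most counts (1.27), COL6A1 (1.44), COL5A1 (1.36) and SPARC (1.08). CPT1A, PDK4 and ACACB were lower in steers at the adjusted p, as were all 12 myeloid and 13 of 14 T lymphocyte markers. Of 18 muscle markers 12 were lower and 3 higher, and of 12 adipocyte markers 5 were lower and 4 higher. Among all genes 18.9% were lower and 20.4% higher. The part of those cells in the falls of CPT1A, PDK4 and ACACB was not tested. Endothelial markers, with 0 of 11 called, had a median of -0.16 and PECAM1 at 0.16, and erythroid markers had 40 counts in steers versus 8 in bulls, HBB being upregulated and HBA at 16 counts against 6.

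In the RefSeq annotation ARS-UCD2.0, 11 of the 36 gene models overlap another model, and the use of strand in counting is not given in the sources used here. Among the called genes this concerns ECHS1, whose overlapping gene SORCS3 had 19 counts in steers versus 8 in bulls.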

How the data were processed

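IMF RNA of steers and of bulls was sequenced on an Ion Proton, 1 pooled library per group. The authors removed adaptors and low-quality reads, used MapSplice for alignment to the bovine genome and deposited raw counts per gene. The submitters' processing notes name BWA and the human build GRCh37.p13. The counting program and its handling of strand and multiply mapped reads are not given in the sources used here. Depth, 9868415 counts or more per library, limits precision only for genes with few reads.

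Size factors and exact binomial tests were computed with numpy 2.4.6 and scipy 1.17.1, and scaling factors and assumed-dispersion tests with edgeR 4.0.16 in R 4.3.3. The test was tested on simulated data. Single genes had no prior count, and list medians had a prior of 0.5 counts. Alternatives were total counts, TMM, upper quartile, at least 10 counts over both libraries, assumed coefficients of variation of 0.1, 0.2 and 0.4, no fold threshold and a prior of 5 counts. Members and lists were chosen with earlier results of these data known. All members are named, and of other lists the gene with the most counts and up to 4 called genes; other genes named were chosen after their values were seen. Single values of some genes in those lists are not reported here. The authors used EBSeq, which was not run here. The 4 miRNA libraries were not used here, and neither were sequences.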

Additional observations from a re-analysis of the deposited data

How the results depend on the processing

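No paired analysis was possible because each mRNA group has 1 library. With total counts the median was -0.21 for all oxidation genes, 0.27 for hydration to thiolysis, 0.12 for electron transfer and -0.34 for peroxisomal enzymes. That scaling turned 6 genes below 0, MLYCD (-0.20), ACADS (-0.086), ACAD11 (-0.11), HADHA (-0.22), HADHB (-0.22) and ECI2 (-0.18), and left 0 upregulated. Upper-quartile factors put ACADL (0.0093) and ETFDH (0.014) above 0. These shifts follow from the scalings themselves, which move all genes alike. With a prior of 5 counts ACACB, at -0.98, fell short of the fold threshold. The filter of 10 counts and TMM changed no call of an oxidation gene.

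An assumed coefficient of variation of 0.2 left 368 of all genes upregulated and 762 downregulated (827 and 1509 without it), with 0 and 2 oxidation genes. At 0.4 these were 52 and 93 of all genes, with 0 and 0 oxidation genes. Without a fold threshold 3619 genes were upregulated and 3354 downregulated, of which 14 and 5 were oxidation genes. Depth limits CPT1C, ACADM and CROT most, whose intervals are the widest of the list.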
